A study of Homo sapiens with 4 samples.

Results

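The 10 genes described here encode G1 cyclins and inhibitors of cyclin-dependent kinases, the proteins that set whether a cell passes from G1 into S phase. They were taken by symbol: CDKN1A, CDKN1B, CDKN2A, CDKN2B, CDKN2C, CDKN2D, CCND1, CCND3, CCNE1 and CCNE2, with every probe that the platform annotation pairs with them. Of the 20044 genes with a probe, 9 were members, with 17 of 47227 probes; no probe was listed under CDKN2C. Transcript levels were measured on 4 Illumina HumanHT-12 arrays, on which oligonucleotides attached to beads bind labelled RNA, in cultures labelled HT-29, an established line from a human colorectal adenocarcinoma. Cyclopamine, a plant alkaloid and antagonist of Smoothened in the Hedgehog pathway, was used at 20 µM for 48 h and set against the control of the same chip, here the chip 1 control. GANT61, an antagonist of GLI, the transcription factors at the end of that pathway, was also used at 20 µM for 48 h, and its reference is the chip 2 control. The chip 2 control is DMSO, the solvent, in all its labels. The chip 1 control is given as DMSO by its title and as tomatidine, an alkaloid related to cyclopamine, by its source name. Each group is 1 array from 1 culture, so nothing below has a replicate check, and each ratio compares those cultures. In such bulk RNA, fewer cells that express a gene and less RNA per cell cannot be told apart.

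D-type cyclins bind CDK4 and CDK6 in response to growth signals, and E-type cyclins bind CDK2 later in G1; together these kinases phosphorylate the retinoblastoma protein and release E2F transcription factors, which drive the genes of DNA replication. INK4 inhibitors, encoded by the CDKN2 genes, bind CDK4 and CDK6 themselves, whereas the CIP/KIP inhibitors of CDKN1A and CDKN1B bind cyclin and kinase complexes and act chiefly on CDK2. CCND1 is a target of WNT and growth factor signalling in the intestinal epithelium.

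The chips differed in cell type markers. Of 14 epithelial markers, 2 (KRT8 and KRT18) were above background with cyclopamine and 2 in the chip 1 control, against 12 with GANT61 and 12 in the chip 2 control. EPCAM and CDH1, which define epithelial cells, were below background on both chip 1 arrays. Summed epithelial intensity was 2672 with cyclopamine, 2700 in the chip 1 control, 29519 with GANT61 and 35540 in the chip 2 control. Of 9 mesenchymal markers, 5 were above background on each chip 1 array and 3 on each chip 2 array, with summed intensities of 6947 with cyclopamine, 7926 in the chip 1 control, 767 with GANT61 and 835 in the chip 2 control. Of 4 leukocyte markers with a probe, 1 or 2 were above background on any array, and of 4 endothelial markers none was. The label HT-29 therefore matched its epithelial markers on chip 2 and went against them on chip 1, and each compound is compared only within its chip.

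Probes were called above background at a detection p under 0.01. Of the 17 member probes, 11 were above background on all 4 arrays, 1 on 3 arrays and 5 on none. The 12 measurable probes cover 8 genes, each with at least 1 probe above background on all 4 arrays. CCNE2, the second E-type cyclin, had only 1 probe, with intensities of 56.2 with cyclopamine, 55.8 in the chip 1 control, 42.9 with GANT61 and 36.7 in the chip 2 control, all below background. No change in CCNE2 was detectable. Intensities are given as deposited; ratios are log2 differences after background correction and normalisation over the 4 arrays, which also remove differences in overall brightness. Where a gene had several probes above background on both arrays, their ratios spread by 0.23 (SD per probe, 1823 genes) with cyclopamine and 0.26 (2343 genes) with GANT61; it covers the probe, not the culture.

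**Figure D1:**
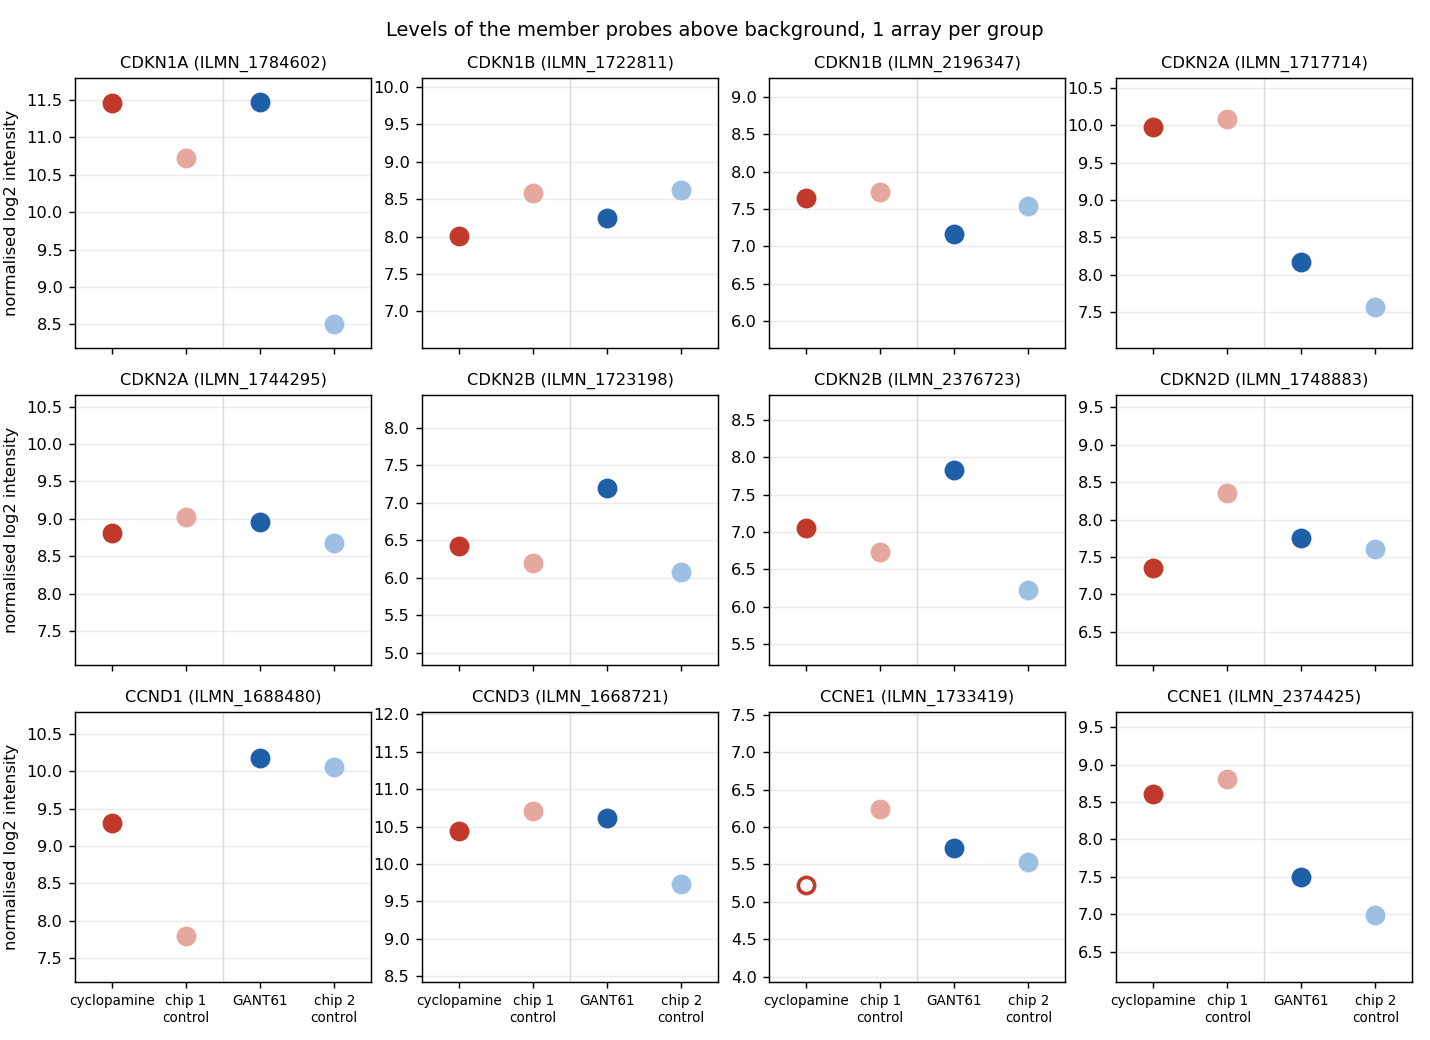
Normalised log2 intensity (y axis, the same span in every panel) of the 12 member probes above background on at least 1 array, with cyclopamine, the chip 1 control, GANT61 and the chip 2 control (x axis, 1 point per array; an open point is below background). CDKN1A stands lowest in the chip 2 control at 8.50 and near 11.5 with either compound, and CCND1 stands lowest in the chip 1 control at 7.80.

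CDKN1A and CDKN2B, an inhibitor of each family, were higher with GANT61, and CDKN2D, another INK4 inhibitor, was lower with cyclopamine. The 250 bases before their annotated starts are shown because these inhibitor genes have the ratios farthest from 0. The sequences are those of RefSeq on GRCh38.p14, at chr6:36678464-36678713 (plus strand), chr9:22009306-22009555 (minus strand) and chr19:10568980-10569229 (minus strand), and capitals mark the GC box, GGGCGG on either strand.
CDKN1A: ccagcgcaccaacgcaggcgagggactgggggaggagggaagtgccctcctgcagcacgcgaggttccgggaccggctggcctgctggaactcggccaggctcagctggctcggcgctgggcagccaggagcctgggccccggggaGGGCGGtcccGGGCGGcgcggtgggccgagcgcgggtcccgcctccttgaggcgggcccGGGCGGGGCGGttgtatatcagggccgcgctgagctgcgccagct
CDKN2B: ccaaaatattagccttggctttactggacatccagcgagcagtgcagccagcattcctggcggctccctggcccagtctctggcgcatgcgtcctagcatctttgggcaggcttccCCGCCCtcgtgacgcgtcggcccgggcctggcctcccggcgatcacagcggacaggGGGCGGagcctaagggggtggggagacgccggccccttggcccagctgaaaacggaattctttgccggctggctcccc
CDKN2D: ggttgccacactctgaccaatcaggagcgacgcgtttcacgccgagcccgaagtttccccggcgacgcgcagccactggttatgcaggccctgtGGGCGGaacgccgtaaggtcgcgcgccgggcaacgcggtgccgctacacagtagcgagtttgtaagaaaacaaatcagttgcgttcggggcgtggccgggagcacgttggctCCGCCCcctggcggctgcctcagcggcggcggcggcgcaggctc
CDKN1A held 4 matches to the GC box, a binding site of Sp1 and Krüppel-like factors, 45 and 40 bases before the start for the closest and 104 and 94 for the others; the closest pair overlap. CDKN2B and CDKN2D held 2 each. Of 35116 such windows in the table, 42.6% held at least 1. The search covered 13 windows of 8 members, some with several starts, and 10 of the 13 held a GC box. No window of CCND1 or CCNE2 was among the 13, so these counts say nothing of those genes. The E-box CACGTG was in 2 of the 13, both of CDKN2C (6.34% of all windows). None held the GLI site GACCACCCA (0.199% of all windows), an AP-1 site TGANTCA (6.57%) or an E2F site spelled TTTCCCGC, TTTGGCGC, TTTCGCGC or TTTGCCGC (2.79%), each searched on both strands. A match describes the letters and shows no binding, and a missing one says only that these letters are not in this window.

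CDKN1A, the broad kinase inhibitor of the CIP/KIP family, had an intensity of 2705 with cyclopamine and 1954 in the chip 1 control, and of 2544 with GANT61 and 473 in the chip 2 control (probe ILMN_1784602). The chip 2 control was far below the other 3 arrays. The log2 ratio was 2.97 with GANT61, or 7.86-fold higher, ranked 13 from the top of 10439 tested genes (0.115% above it). With cyclopamine it was 0.74, or 1.67-fold higher, with 6.37% of 8999 tested genes above it. The normalised log2 level was 11.47 with GANT61 and 8.50 in the chip 2 control, and 11.47 with cyclopamine and 10.73 in the chip 1 control. Over the 5 other normalisations the ratio ranged from 2.43 to 2.86 with GANT61 and from 0.47 to 0.80 with cyclopamine, and with cyclopamine it was below 1.5-fold in the series table (0.47) and under median scaling (0.50). The other CDKN1A probe, ILMN_1787212, was below background on all 4 arrays, so the ratio rests on 1 probe.

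CDKN1B, which encodes the inhibitor that holds CDK2 in check in resting cells, was at an intensity of 258 with cyclopamine and 433 in the chip 1 control, and at 380 with GANT61 and 505 in the chip 2 control (ILMN_1722811). Its other probe, ILMN_2196347, read 212 with cyclopamine, 251 in the chip 1 control, 209 with GANT61 and 279 in the chip 2 control. Both probes read below the control with either compound. With GANT61 their log2 ratios were -0.37 and -0.38, within 1.5-fold and close to each other. With cyclopamine they were -0.57 and -0.09, and the first passed 1.5-fold in 3 of the 5 other normalisations (-0.91 at the extreme). CDKN1B thus stood on the other side of its control from CDKN1A in both comparisons.

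CDKN2B, a neighbour of CDKN2A on chromosome 9 and an inhibitor induced by TGF-beta in epithelial cells, had an intensity of 160 with cyclopamine and 152 in the chip 1 control, and of 299 with GANT61 and 140 in the chip 2 control (ILMN_2376723). A second probe, ILMN_1723198, read 127 with cyclopamine, 123 in the chip 1 control, 214 with GANT61 and 129 in the chip 2 control. On both probes GANT61 was the highest array. The log2 ratios with GANT61 were 1.60 (3.02-fold higher, 1.18% of tested genes above it) and 1.13 (2.19-fold), and they stayed past 1.5-fold in all 5 other normalisations. With cyclopamine they were 0.31 and 0.22. Another probe, ILMN_1670111, was below background on all 4 arrays. These intensities lie close to background, where the background correction weighs most: without it, or with a larger offset or in the series table, the first ratio with GANT61 was between 1.10 and 1.26.

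CDKN2A encodes the INK4A inhibitor and, from another first exon, ARF. The probe annotated to the INK4A transcript, ILMN_1717714, read 940 with cyclopamine, 1223 in the chip 1 control, 364 with GANT61 and 284 in the chip 2 control. The probe annotated to the ARF transcript, ILMN_1744295, read 425 with cyclopamine, 587 in the chip 1 control, 568 with GANT61 and 521 in the chip 2 control. The INK4A probe was several-fold brighter on chip 1 than on chip 2, and the ARF probe was not. With GANT61 the log2 ratios were 0.60 (1.52-fold) and 0.29; the first fell short of 1.5-fold in all 5 other normalisations (0.36 to 0.56). With cyclopamine they were -0.10 and -0.22. The other CDKN2A probe, ILMN_1757255, was below background on all arrays, and whether each probe tells the transcripts apart was not tested.

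CDKN2D encodes the INK4 inhibitor whose level rises in S phase. Its intensity was 183 with cyclopamine and 373 in the chip 1 control, and 287 with GANT61 and 290 in the chip 2 control (ILMN_1748883). Cyclopamine was the lowest array and the chip 1 control the highest. The log2 ratio was -1.004 with cyclopamine, ranked 172 from the bottom of 8999 tested genes (1.9% below it), and it ranged from -1.35 to -0.81 over the other normalisations. With GANT61 it was 0.15, and between -0.07 and 0.14 in the others. The second probe, ILMN_1740597, was below background on all arrays, so this ratio too rests on 1 probe.

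CCND1, the cyclin D1 gene, read 592 with cyclopamine and 260 in the chip 1 control, and 1185 with GANT61 and 1186 in the chip 2 control (ILMN_1688480, its only listed probe). Within chip 1 cyclopamine was higher, and both chip 2 arrays were higher than either. The log2 ratio was 1.52 with cyclopamine, or 2.86-fold higher, ranked 81 from the top of 8999 genes (0.889% above it), and it stayed between 1.19 and 1.70 over the other normalisations. With GANT61 the log2 ratio was 0.12 (-0.05 to 0.12 in the others). CCND3, a D-type cyclin best known from lymphoid and differentiating cells, showed a different pattern, with 1315 with cyclopamine and 1933 in the chip 1 control, and 1544 with GANT61 and 964 in the chip 2 control (ILMN_1668721). Here the chip 2 control was the lowest array. The log2 ratio of CCND3 was 0.87 with GANT61, or 1.83-fold higher, and past 1.5-fold in every normalisation run; with cyclopamine it was -0.28.

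CCNE1, the cyclin that activates CDK2 at the entry into S phase, read 370 with cyclopamine, 501 in the chip 1 control, 250 with GANT61 and 206 in the chip 2 control (ILMN_2374425). At this probe both chip 1 arrays were brighter than both chip 2 arrays. The log2 ratios were -0.20 with cyclopamine and 0.51 with GANT61, both under 1.5-fold. The dimmer probe, ILMN_1733419, read 96.3 with cyclopamine, which was below background, 125 in the chip 1 control, 103 with GANT61 and 95.1 in the chip 2 control. It was at least 1.23-fold lower with cyclopamine and had a log2 ratio of 0.19 with GANT61.

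**Figure D2:**
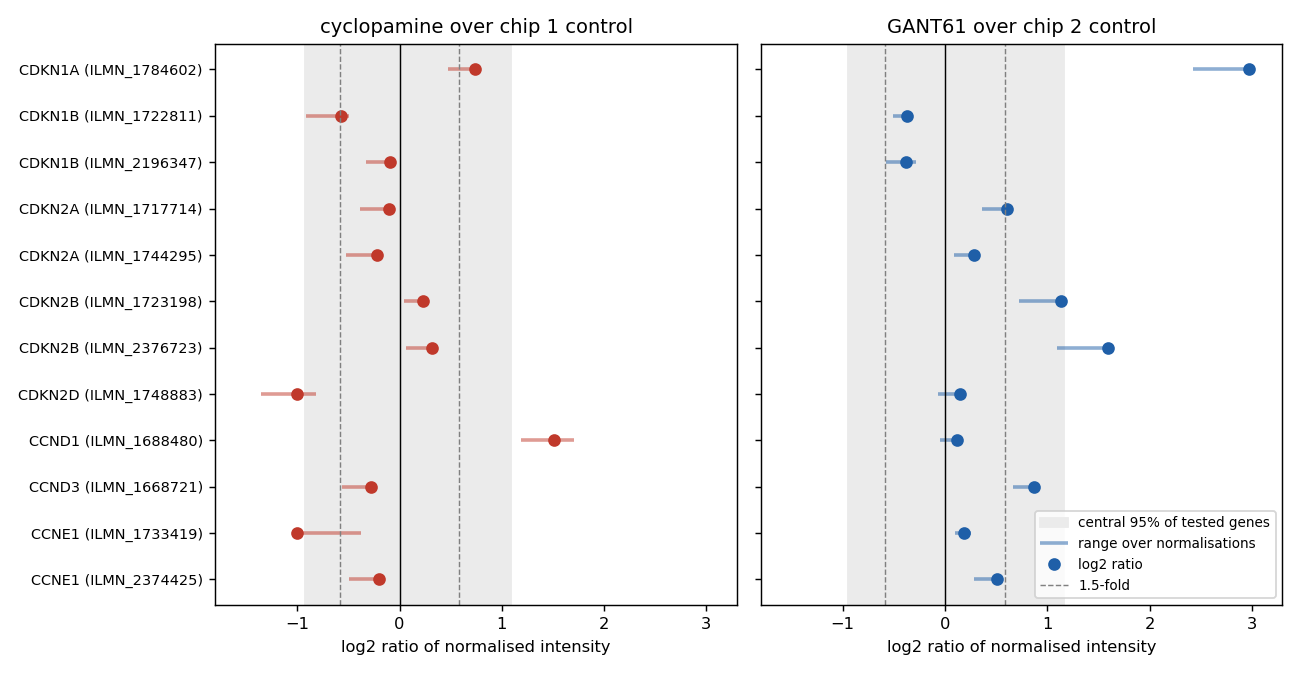
Log2 ratio (x axis) of each member probe above background on at least 1 array, for cyclopamine over the chip 1 control (left) and GANT61 over the chip 2 control (right); points are the values reported, lines their range over 6 normalisations, the grey band the central 95% of tested genes and dashed lines 1.5-fold. CCND1 and CDKN2D lie outside the band with cyclopamine at 1.52 and -1.004, and CDKN1A and CDKN2B with GANT61 at 2.97 and 1.60; the below-background level of the dimmer CCNE1 probe makes its cyclopamine point of -1.01 a measured value with a bound only.

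Counted by gene, at the probe with the highest mean level, 4 of the 8 members above background were at least 1.5-fold higher with GANT61 (CDKN1A, CDKN2B, CDKN2A and CCND3) and 0 lower, against a background of 10.6% higher and 9.29% lower among 10439 genes. The count was 3 under each of the 5 other normalisations, where CDKN2A was within 1.5-fold. With cyclopamine 2 of 8 were at least 1.5-fold higher (CCND1 and CDKN1A) and 1 lower (CDKN2D), against 9.8% higher and 7.82% lower among 8999 genes. The members' median log2 ratio was 0.56 with GANT61 and -0.15 with cyclopamine, beside -0.01 over all tested genes in each. At 2-fold, CDKN1A and CDKN2B were higher with GANT61 (background 3.5%) and 0 members lower (2.03%), and with cyclopamine CCND1 was higher (3.1%) and CDKN2D lower (1.91%). Of the 8, only CDKN1A was at least 1.5-fold higher with both compounds, and with cyclopamine it was so in 4 of 6 normalisations. The compounds were on different chips with unlike cultures, so these ratios stand side by side and their difference was not tested. Single cell type markers also differed within a chip. Of 12 epithelial markers tested with GANT61, KRT20 and CEACAM6 were at least 1.5-fold higher and CDX2 and VIL1 lower, with 6 ratios above 0, 6 below and a median of -0.01. Of 3 mesenchymal markers tested with GANT61, CCN1 was at least 1.5-fold higher (log2 ratio 0.63), CCN2 lower (-1.31) and VIM within it (0.10). With cyclopamine 0 of 5 mesenchymal markers tested were at least 1.5-fold apart. Of the leukocyte markers, CD68 had an intensity of 855 with cyclopamine and 314 in the chip 1 control, while PTPRC, CD3E and CD14 were below background on both arrays. The part of these markers in the members' ratios was not tested.

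**Figure D3:**
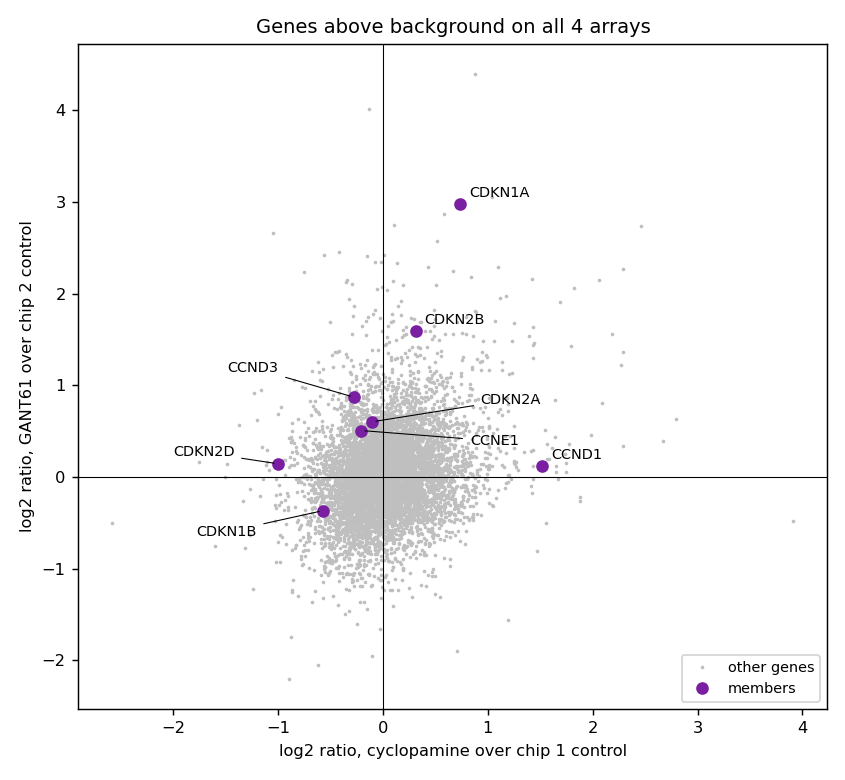
Log2 ratio for cyclopamine over the chip 1 control (x axis) against GANT61 over the chip 2 control (y axis) for 7306 genes above background on all 4 arrays (grey points), with 8 members in purple. CDKN1A lies far up at 2.97 on the GANT61 axis and 0.74 on the cyclopamine axis, and CCND1 far right at 1.52 and near 0 on the GANT61 axis.

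The remaining G1 machinery was counted in the same way, to be read against the background shares above; counts use measured ratios, and a gene below background on 1 array is named with its bound, which can be smaller. Among 9 tested genes of a list of G1 kinases and their activators that also holds the inhibitor CDKN1C, 0 were at least 1.5-fold apart with GANT61 (background 10.6% higher and 9.29% lower). With cyclopamine (9.8% higher and 7.82% lower) 1 was higher and 1 lower: CDK6 was higher (log2 ratio 0.65) and MNAT1, which assembles the CDK-activating kinase, was at least 1.72-fold lower. CDK2 had -0.39 with cyclopamine and 0.37 with GANT61, and CDK4 had 0.09 and 0.19. Among pocket proteins and E2F factors, 0 of 11 passed 1.5-fold with cyclopamine. With GANT61 2 of 12 were higher (background 10.6%), E2F6, a repressor, at 0.68 and E2F3 at 0.66, and 1 was lower (9.29%), E2F1, by at least 1.35-fold. RB1, the retinoblastoma gene, had -0.34 with cyclopamine and 0.05 with GANT61. The median of the E2F list was 0 with cyclopamine and -0.09 with GANT61. The median of the kinase list was -0.25 with cyclopamine and 0.12 with GANT61, the last being the ratio of CDKN1C itself.

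SKP2, the ubiquitin ligase subunit that marks the CDKN1B and CDKN1A proteins for degradation, read 1367 with cyclopamine, 1954 in the chip 1 control, 836 with GANT61 and 1472 in the chip 2 control (ILMN_1665538). GANT61 was the lowest array. Its log2 ratio was -0.83 with GANT61 and -0.23 with cyclopamine. A second SKP2 probe, ILMN_1791002, read 354 with cyclopamine, 731 in the chip 1 control, 153 with GANT61 and 219 in the chip 2 control. Its log2 ratios were -0.57 with GANT61 and -0.80 with cyclopamine, so the probes differed in which compound had the lower ratio, and both were below 0 with each. Among the 12 ligase genes tested with GANT61, SKP2 was the only one at least 1.5-fold lower, and AMBRA1, a receptor for cyclin D degradation, was the only one higher, by at least 1.29-fold; 1 of 12 each way is near the background of 9.29% lower and 10.6% higher. With cyclopamine 2 of 11 were lower (background 7.82%), CUL4B by at least 1.60-fold and AMBRA1 by at least 1.28-fold. Both were below background with cyclopamine, and the bound of AMBRA1 falls short of 1.5-fold. The medians were 0.05 with GANT61 and -0.18 with cyclopamine.

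The list of S phase genes driven by E2F, which also holds the proliferation marker MKI67, was mostly below its control with GANT61. Of its genes 4 of 17 were at least 1.5-fold lower (background 9.29%) and 0 higher. A ratio below 0 was seen in 13 of 17, some of them close to 0, and a ratio above 0 in 4. The median was -0.42, beside -0.01 over all tested genes. RRM2, a ribonucleotide reductase subunit, had -1.06, MKI67, the proliferation marker, -1.05, GINS2, of the replicative helicase, -0.69, and TK1, thymidine kinase, -0.63. With cyclopamine 2 of 16 were at least 1.5-fold lower (background 7.82%), CCNA2, the S phase cyclin, at -0.92 and RRM2 at -0.59, and 0 higher, with a median of -0.08. MKI67 was below background on both chip 1 arrays. CCNA2 with GANT61 had -0.51.

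**Figure D4:**
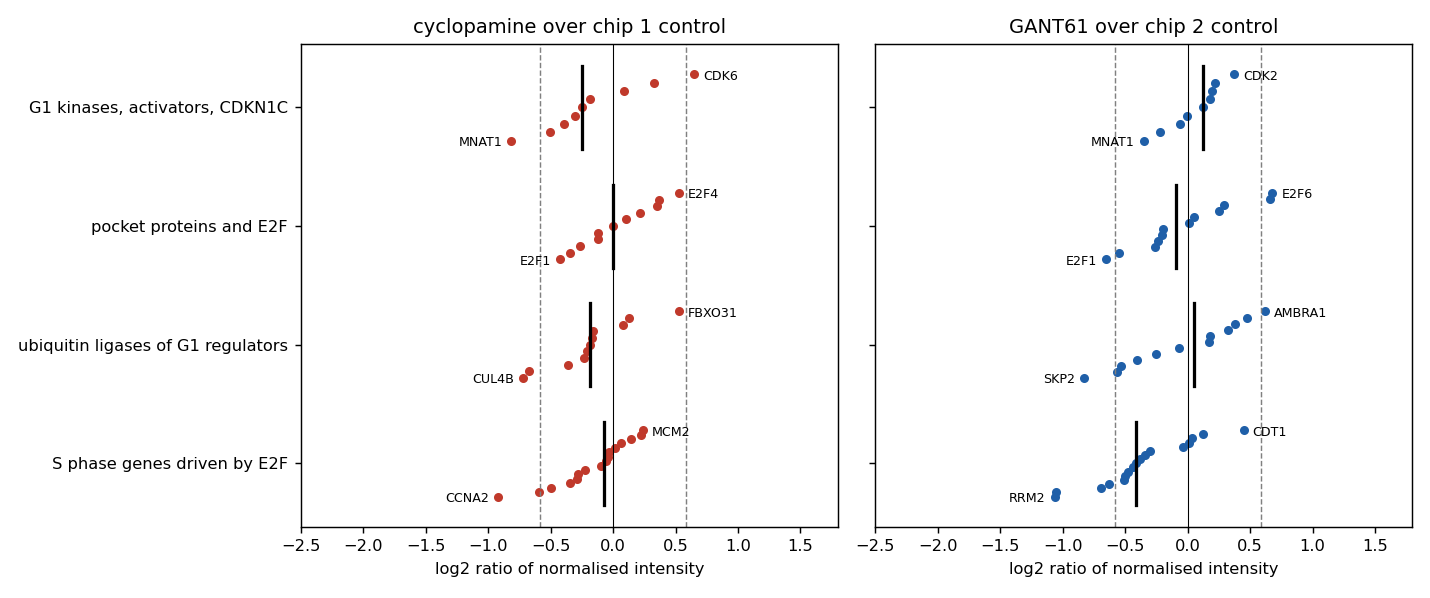
Log2 ratio (x axis) of the genes of 4 cell cycle lists tested for cyclopamine over the chip 1 control (left) and GANT61 over the chip 2 control (right), 1 point per gene, with the median as a black bar, 1.5-fold as dashed lines and the lowest and highest gene named. The S phase list, with MKI67, has a median of -0.42 with GANT61 and -0.08 with cyclopamine. Ratios of genes below background on 1 array are measured values, and the text gives bounds for those it names.

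The genes with ratios most like those of a member were ranked by Euclidean distance over both log2 ratios, among 7306 genes above background on all arrays. Nearest to CDKN1A were TYMP, thymidine phosphorylase (0.59 with cyclopamine and 2.86 with GANT61, distance 0.19), RNY4, a small Y RNA (distance 0.31), HLA-B, whose probe may bind related HLA transcripts (0.45), NAMPT, of NAD synthesis (0.68), and IFITM1, an interferon-induced gene (0.73). Nearest to CCND1 were EFNA1, an ephrin ligand (1.43 with cyclopamine and 0.12 with GANT61, distance 0.083), SLC4A5 (0.097), CDAN1 (0.103), RPUSD2 (0.14) and GOLGA6L6 (0.15). These are distances over 4 arrays from 4 cultures.

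The controls themselves differed in several members. The chip 1 control exceeded the chip 2 control in CDKN2A at the INK4A probe (log2 ratio 2.51), CDKN1A (2.23), CCNE1 (1.82), CCND3 (0.97) and CDKN2D (0.75), and stood below it in CCND1 (-2.26). That is 5 of 8 members at least 1.5-fold higher and 1 lower, where 29.4% of 10905 genes were higher and 34.3% lower, and at 2-fold 3 were higher and 1 lower (19.1% and 23.3%). The probe SD was 0.55. For CDKN2A the ARF probe had only 0.36. CDKN1B (-0.03) and CDKN2B (0.51) were within 1.5-fold. The gap between the controls was larger in size than the cyclopamine ratio for CDKN1A, CDKN2A, CDKN2B, CCND1, CCND3 and CCNE1. This gap was also larger in size than the GANT61 ratio for CDKN2A, CDKN2D, CCND1, CCND3 and CCNE1. Chip, culture and the label of the chip 1 control cannot be told apart in it.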

How the data were processed

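Arrays of total RNA from 4 cultures were used, 1 per group. Per the labels, RNA was amplified and labelled with biotin and hybridised to Illumina HumanHT-12 V4 BeadChips. Per the file headers, the authors deposited, for each array, an intensity and a detection p-value per probe. The software that summarised the beads is not given in the sources used here. Values of the deposited series table are log2 of these intensities, to within 5e-09. The 47227 probes on both chips were normalised in R 4.3.3 by the neqc function of limma 3.58.1 (normal-exponential background correction from the detection p-values, an offset of 16, quantile normalisation over 4 arrays). A simulated check of this step changed only brighter probes on a copy of 1 array. It therefore did not cover dim probes or differences between arrays or chips. The offset compresses ratios of dim probes. Median intensity was 91.1 with cyclopamine, 90.2 in the chip 1 control, 74.9 with GANT61 and 72.8 in the chip 2 control, with 13453, 13908, 15958 and 17068 probes above background at a detection p under 0.01. With arrays, their number limits the precision.

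Of the probes, 30111 had 1 symbol, 8 several (left out) and 17108 none; symbols were updated by Entrez identifier (30072 matched). For each of 20044 genes the probe brightest on average over the 4 arrays stood for the gene. Ratios cover genes or probes above background on at least 1 array compared, and carry no test, since each group has 1 array. For a probe below background on 1 array, the fold is a bound ("at least"), taken against that array's lowest detected level or the probe's own, whichever is higher. All member probes are named; genes of the other lists are named if at least 1.5-fold apart with either compound, with CDK2, CDK4, CDK6, RB1 and E2F1 in any case, and the 5 genes nearest to the member with the largest ratio in each comparison. A further gene list is not reported here. The members and lists were chosen with earlier results of these data known. Alternatives were 5 other normalisations, 3 detection filters and the mean over probes.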

Additional observations from a re-analysis of the deposited data

Results flagged for a closer look

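The 4 members CDKN2D, CCND3, CCNE1 and CDKN2A had ratios of opposite sign with the compounds at probes above background on all 4 arrays. The log2 ratio with GANT61 minus that with cyclopamine was 1.15 for CDKN2D (ILMN_1748883), 1.15 for CCND3 (ILMN_1668721), 0.71 for CCNE1 (ILMN_2374425) and 0.70 for CDKN2A (ILMN_1717714). These differences were not tested, since each rests on 4 single arrays from 2 chips. CDKN2D with GANT61 was 0.15 and turned to -0.07 under median scaling and -0.01 in the series table, so its opposite sign was lost there. That ratio was also smaller than the probe SD with GANT61 (0.26). With cyclopamine the ratios of CDKN2A (-0.10) and CCNE1 (-0.20) were smaller in size than the probe SD (0.23).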

How the results depend on the processing

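No paired analysis was possible because each group holds 1 array. For the members with GANT61 and between the controls, every count at 1.5-fold stayed within 1.5 times its value under the alternatives run. With cyclopamine, members at least 1.5-fold higher numbered 1 in place of 2 under median scaling, 1 in the series table and 1 with the mean over probes, and members at least 1.5-fold lower numbered 2 in place of 1 with neqc within each chip, 2 under median scaling and 2 in the series table, as CDKN1B joined CDKN2D. With the mean over probes the 1 lower gene was CCNE1 (-0.61), not CDKN2D (-0.56). Averaging probes, background probes included, took CDKN1A with GANT61 to 1.501 and CDKN2B to 0.87. Of 192 alternative ratios of member probes, 151 moved by less than the probe SD, 41 by more, and none of those past 1.5-fold changed sign. The median of all tested genes shifted to -0.25 (cyclopamine) and -0.20 (GANT61) under median scaling, and to -0.19 and -0.11 with the series table, and with median scaling 5% of genes were higher and 17% lower with cyclopamine, and 6.68% and 17.7% with GANT61, so small ratios such as those of CDKN2A, CCND3 and CCNE1 with cyclopamine are to be read against these shifts. For the 4 other gene lists, over all comparisons, 39 of 208 alternative counts moved by over 1.5 times and 5 of 104 alternative medians by more than the probe SD. Signals near background limit CDKN2B and the dimmer CCNE1 probe.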

Other observations

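CDKN2B lies near CDKN2A and MTAP on chromosome 9, with the noncoding RNA gene CDKN2B-AS1 running the other way across it. These genes of the region were looked at after the values of CDKN2B were seen. A CDKN2B-AS1 probe (ILMN_1887731) read 112 with cyclopamine, 115 in the chip 1 control, 127 with GANT61 and 85.9 in the chip 2 control, where it was below background, so it was at least 1.72-fold higher with GANT61. Its other probe was below background on all arrays. MTAP (ILMN_1753639), a methylthioadenosine phosphorylase, had a log2 ratio of 0.25 with GANT61 and 0.21 with cyclopamine.

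CDKN1C, the remaining CIP/KIP gene and a known imprinted gene, was also singled out after its values were seen. It read 669 with cyclopamine, 1155 in the chip 1 control, 121 with GANT61 and 121 in the chip 2 control (ILMN_1718565). Its log2 ratio was -0.51 with cyclopamine and 0.12 with GANT61, and 4.05 for the chip 1 control over the chip 2 control.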
